A study of Mus musculus with 8 samples.

Results

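The translation initiation factor mRNAs of mouse P19 cells are described here gene by gene, by the poly(A) tail and the read number of each in 8 nanopore direct RNA sequencing libraries. Members were taken by name, as every mRNA whose gene symbol starts with Eif1 to Eif6, after pseudogene copies had been set aside. The rule used no tail and no expression value other than a minimum of 30 reads over all libraries for a tail distribution. Of 13104 genes with reads, 55 were initiation factor genes, and 47 of these reached 30 reads, out of 5834 genes that did. Just inside that minimum was Eif2s3y with 46 reads, and just outside it were Eif5a2 with 22 and Eif4g3 with 21. The other genes below it were Eif2ak4 with 14 reads, Eif2ak3 with 11, Eif4e3 with 10, Eif4ebp3 with 3, and Eif4e1b and Eif2ak2 with 1 each. P19 is a mouse embryonal carcinoma line that can be turned into neurons, and all cells here were kept undifferentiated. They received 10 µM MHY1485 (MHY), a compound used to activate the mTOR kinase, or the solvent DMSO, and were collected after 24 h or 48 h, so that there were 4 groups (DMSO 24 h, MHY 24 h, DMSO 48 h and MHY 48 h). Each group had 2 libraries, all from the same cell line, and the medium was renewed daily. The 24 h libraries shared 3 sequencing runs and the 48 h libraries another 2, with both treatments in every run, so that time and run cannot be told apart.

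Initiation factors bring the small ribosomal subunit, the initiator tRNA and the mRNA together. The eIF4F complex, made of the cap-binding protein eIF4E, the scaffold eIF4G and the RNA helicase eIF4A, recruits the mRNA by its cap and, through the poly(A)-binding protein, also contacts its tail. The eIF2 complex delivers the initiator tRNA, eIF2B recharges eIF2 with GTP, and the large eIF3 complex holds the ribosomal subunit during scanning. Active mTOR phosphorylates the 4E-BP proteins, which then release eIF4E, and it raises the translation of TOP mRNAs, which start with a C followed by an unbroken run of pyrimidines. Most TOP mRNAs encode ribosomal proteins, but a few encode initiation factors. The study's list of TOP transcripts holds 5 of the members: Eif3a, Eif3e, Eif3f, Eif3h and Eif4b.

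The start of the mRNA is what the TOP list refers to, and the annotated starts of the members are shown first for that reason. Of the 47 members, 38 had a promoter entry that was used here (RefSeq, assembly GRCm38.p6). A C at the annotated start with at least 4 further C or T directly after it was found in 2 of the 38 members (5.26%), against 3.01% of 27025 genes with an entry and 20% of 55 TOP-list genes outside this family. Only the strand of the gene was read, and nothing else was searched. The windows below run from 5 bases before the annotated start to 20 bases from it (25 bases, 5′ to 3′). Capitals mark the unbroken run of C and T that begins at the start base, and a window without capitals starts with A or G. Eif3f and Eif2s3x held the long runs. Eif4b and Eif3a are on the TOP list, and Eif4a1, Eif4a2 and Eif3g are members to which the tail results return.
Eif3f: gctctCTCTCTTTCTCggcaagatg
Eif2s3x: ttttcCTTTTCTCTCCgagcaagat
Eif4b: tcggaCgccgcgccaccccctcgcg
Eif3a: gcggcggcgctgccgccgcgaggga
Eif4a1: gtcacgtcgagttgcagagcgccgg
Eif4a2: cccgtaggagcagggcggccgagga
Eif3g: ggctgggagctgcgtggagttaaga

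The Eif3f window is chr7:108934410-108934434 on the plus strand and that of Eif2s3x is chrX:94212632-94212656 on the minus strand, both with a run of 11 pyrimidines. The others are chr15:102073768-102073792 (plus) for Eif4b, chr19:60790674-60790698 (minus) for Eif3a, chr11:69672404-69672428 (minus) for Eif4a1, chr16:23107463-23107487 (plus) for Eif4a2 and chr9:20898571-20898595 (minus) for Eif3g. Of the 5 TOP-list members, 3 had an entry (Eif3a, Eif3f and Eif4b), and 1 of these 3 (Eif3f) held such a run. A gene can start at more than 1 place, and an annotated start need not be the one used in P19 cells.

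The libraries held 175130 to 310979 reads each after filtering, and initiation factor mRNAs took 1.60% to 1.90% of them, 33534 reads in all. Pou5f1, the pluripotency factor Oct4, had 2421 to 2962 rpm (reads scaled to 1000000 in each library), and 7 of 8 markers of undifferentiated embryonal carcinoma cells had reads, summing to 3350 to 3852 rpm (mostly Pou5f1), while Zfp42 had none. Among the 7, Dppa5a had only 11 reads in all and Nanog 26.2 to 80.8 rpm. The 5 neuronal markers summed to 32.0 to 77.0 rpm (nearly all Tubb3, Dcx at 0), the 4 endoderm and mesoderm markers to 17.1 to 238 rpm (nearly all T, Sox17 at 0), and the 3 fibroblast markers to 0 to 22.6 rpm. T, a mesoderm gene, stood at 32.0 and 55.4 rpm in DMSO 24 h, 18.1 and 17.1 in MHY 24 h, 71.4 and 235 in DMSO 48 h and 32.7 and 190.2 in MHY 48 h, and was high in both replicates numbered 25. The part of T in the results below was not tested. The median tail of all mRNAs ranged from 92.5 nt (MHY 48 h replicate 24) to 103 nt (DMSO 24 h replicate 23). Libraries are named by the numbers in the deposited table, where replicates 21 and 23 of each treatment belong to 24 h, and replicates 24 and 25 to 48 h.

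Each read is 1 RNA molecule, so read numbers were not divided by length, and they are levels relative to the library. A few mRNAs dominated the family. Eif5a, which encodes the factor that relieves stalled ribosomes and aids elongation and termination, gave 5586 reads (479 to 882 per library). Eif4a1, the main eIF4A helicase, gave 4916 (406 to 857 per library), and Eif1, which keeps the scanning ribosome selective for the start codon, gave 2508 (206 to 472 per library). Together they made up 38.8% of the reads of the family. Next came Eif4g2 (1207 reads), an eIF4G relative that does not bind eIF4E, Eif4ebp1 (1061), the eIF4E-binding repressor 4E-BP1, Eif3f (1060), Eif2s2 (904), which encodes the beta subunit of eIF2, Eif3h (901), Eif3i (896) and Eif3k (872). Eif4g1, the main eIF4G scaffold, gave 197 reads and its relative Eif4g3 gave 21, and of the 4 kinases that phosphorylate eIF2 only Eif2ak1 (60 reads) passed the minimum.

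Tails of the members ranged widely around those of other mRNAs. The median tail of a member, over all its reads, ran from 76.5 nt for Eif3g to 147.5 nt for Eif4a2, and the median of the 47 medians was 99.1 nt. Over all 5834 genes the median of medians was 105 nt, with quartiles at 96.1 and 115 nt. Of the members, 18 of 47 lay below that lower quartile and 5 lay above the upper one. The 3 shortest were Eif3g (76.5 nt), which encodes an RNA-binding subunit of eIF3, Eif4e2 (78.2 nt), which encodes the eIF4E relative 4EHP, a repressor of translation, and Eif2d (81.2 nt), which encodes a factor that can deliver tRNA without GTP. The 3 longest were Eif4a2 (147.5 nt), which encodes the paralog of the eIF4A1 helicase, Eif1b (126 nt), a near copy of Eif1, and Eif4enif1 (122 nt), which encodes the eIF4E transporter 4E-T. By role, pooled over reads, the median was lowest for eIF2 and related tRNA-delivery factors (91.8 nt) and for eIF3 (93.9 nt), and was 97.7 nt for eIF2B, 98.2 nt for the eIF4E inhibitors and 4E-T, 101 nt for eIF5A and eIF6, 103 nt for eIF4F and its helicases, and 109.8 nt for the start codon factors. Reads of the eIF2 kinases had a median of 110.2 nt, from 86 reads. These pooled medians weigh each member by its reads. Eif5a gave 5586 of the 6227 reads of eIF5A and eIF6, where Eif6 alone had a median of 84.1 nt. Eif4ebp1 gave 1061 of the 1434 reads of the eIF4E inhibitors and 4E-T. The most read member, Eif5a, had a median of 103 nt, at the percentile 43.4 of all genes. That of Eif4a1 was 106 nt, at the percentile 52.2, and that of Eif1 was 116 nt, at the percentile 75.3.

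**Figure D1:**
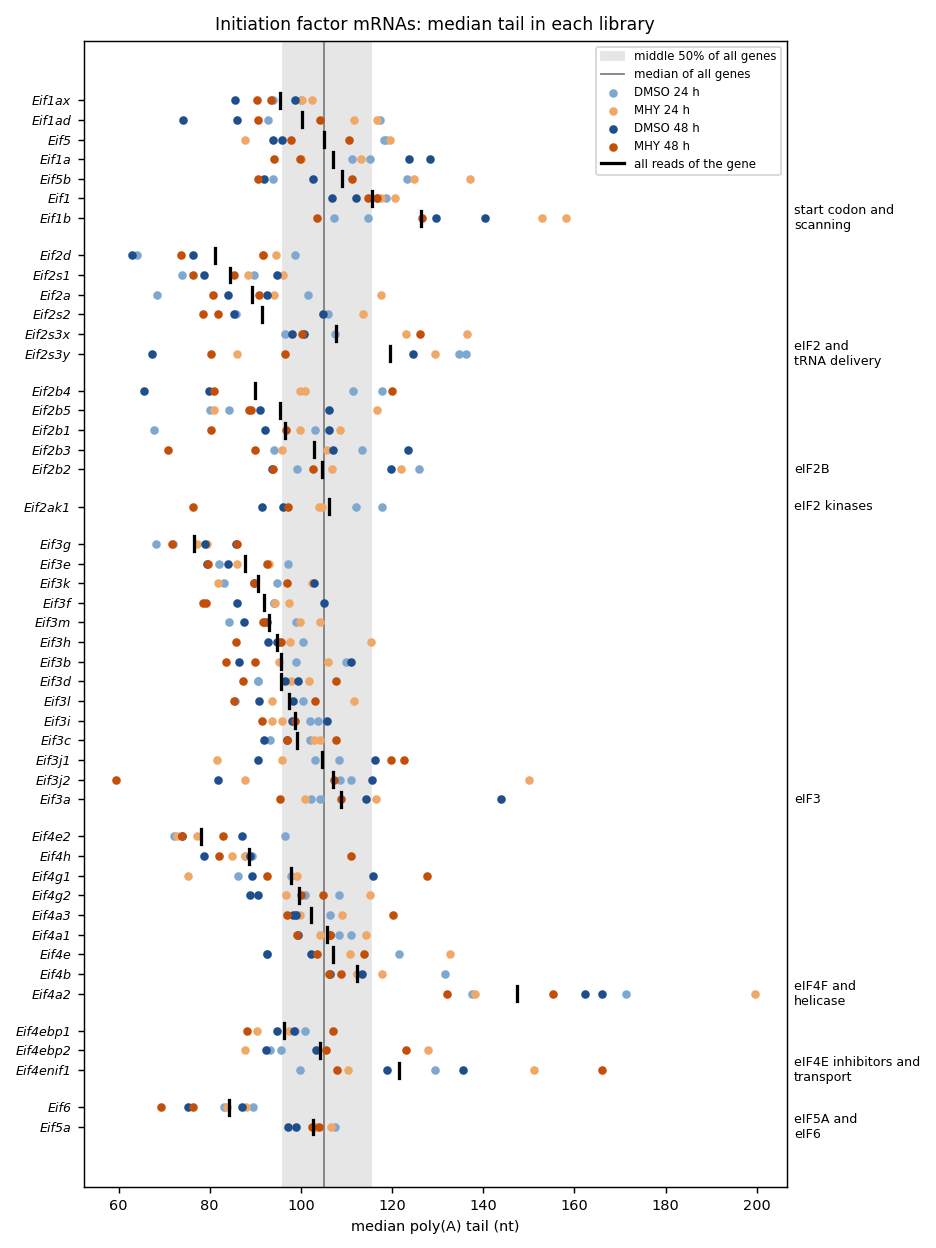
Median poly(A) tail (nt, horizontal axis) of the 47 members with at least 30 reads, grouped by role; each point is 1 library, coloured by group, the black tick is the median over all reads of the gene, and the grey band and line are the quartiles and the median over all 5834 genes. The 8 points of Eif3g lie below the grey band, 7 of the 8 of Eif4e2 do as well, and those of Eif4a2 lie above it, between 132 and 199.6 nt.

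To compare members with all mRNAs, the mean tail of each gene in a library was set against the average over the 1941 genes with at least 10 reads in each library, an average of 103 to 111 nt by library, and the difference was fitted with limma over the 8 libraries. Of the 38 members that could be fitted, 25 differed from the average at an adjusted p under 0.05 (65.8%), with 9 longer and 16 shorter. Among all 1941 genes 48.8% differed, with 20.3% longer and 28.5% shorter, and the median difference was −2.80 nt over the members and −1.23 nt over all genes. With n of 8 libraries, the test asks how each mRNA stands in these cells whatever the treatment. The mean over genes is the reference, so a filter that keeps other genes moves every difference.

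Of the 5 start codon factors that could be fitted, 3 were longer than the average (20.3% of all genes), 1 was shorter (28.5% of all genes) and 1 did not pass. Eif1 had a mean tail of 119 to 127 nt in the 8 libraries and was longer than the average by 14.01 nt (SE 1.20, adjusted p = 3.8e-13), Eif1b by 23.0 nt (SE 4.46, adjusted p = 4.1e-05) and Eif5, which makes eIF2 hydrolyse its GTP, by 8.61 nt (SE 2.80, adjusted p = 0.0101). The median of Eif1 lay above that of its library in 8 of 8 libraries, and so did that of Eif1b. Eif1ax, 1 of the 2 genes for eIF1A, was shorter, by −7.08 nt (SE 1.97, adjusted p = 0.00283), a call that was lost with at least 30 reads in each library (−4.11 nt, adjusted p = 0.0588), and Eif1a was at 5.77 nt (SE 3.79, adjusted p = 0.211). The call on Eif5 was lost when DMSO 24 h replicate 23, MHY 24 h replicate 23 or DMSO 48 h replicate 25 was left out, and among reads mapped at quality 10 or more, where the difference was 4.63 nt.

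The eIF2 complex was mixed. Eif2s1, the alpha subunit that the stress kinases phosphorylate, was shorter by −13.1 nt (SE 2.44, adjusted p = 2.2e-05), and its median lay below that of its library in 8 of 8 libraries. Eif2s2 was at −6.14 nt (SE 2.04, adjusted p = 0.0117), a call that was lost without DMSO 24 h replicate 23, without DMSO 48 h replicate 25, among reads mapped at quality 10 or more, without weights, and with at least 30 reads in each library, where the difference was −3.19 nt. Eif2s3x, the gamma subunit from the X chromosome, was longer by 9.72 nt (SE 3.39, adjusted p = 0.0161), a call that was lost when DMSO 24 h replicate 21, MHY 24 h replicate 23, DMSO 48 h replicate 25 or MHY 48 h replicate 25 was left out. Its Y-linked counterpart Eif2s3y had 2 to 10 reads per library and was not fitted. Eif2d was shorter by −11.8 nt (SE 4.40, adjusted p = 0.0238), a call lost without DMSO 24 h replicate 21, without MHY 24 h replicate 23 or without MHY 48 h replicate 24. None of the 3 eIF2B subunits that could be fitted passed the limma test (Eif2b1, Eif2b2 and Eif2b5, 1 of them at an unadjusted p under 0.05; all genes: 48.8% called and 53.9% at an unadjusted p under 0.05), and Eif2b1 was at −9.22 nt (SE 4.05, adjusted p = 0.0567).

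Of the 13 eIF3 subunit genes that could be fitted, 8 were shorter than the average (28.5% of all genes), 1 was longer (20.3% of all genes) and 4 did not pass. The largest difference among the 8 was that of Eif3g, whose mean tail was 82.6 to 98.4 nt in the 8 libraries and differed from the average by −17.4 nt (SE 2.23, adjusted p = 1.6e-08). Eif3f followed with −9.76 nt (SE 1.71), then Eif3d, a cap-binding subunit, with −8.43 nt (SE 2.34), Eif3m with −7.98 nt (SE 1.95), Eif3k with −7.78 nt (SE 1.91), Eif3h with −7.40 nt (SE 1.86), Eif3e with −7.35 nt (SE 1.90) and Eif3b, a core scaffold subunit, with −5.57 nt (SE 2.34, adjusted p = 0.0455). The call on Eif3b was lost under 7 of the 8 omissions of a library, all but that of DMSO 48 h replicate 24. The exception was Eif3a, the largest subunit, which was longer by 8.30 nt (SE 3.17, adjusted p = 0.0280), a call lost without either DMSO 24 h library, without MHY 24 h replicate 23, without DMSO 48 h replicate 24 or without MHY 48 h replicate 24. Eif3i was at −3.59 nt, Eif3j1 at −2.00 nt, Eif3l at −1.80 nt and Eif3c at −1.24 nt, and these 4 did not pass.

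Of the 9 eIF4F and helicase genes that could be fitted, 4 were longer than the average (20.3% of all genes), 2 were shorter (28.5% of all genes) and 3 did not pass. Eif4a2 was longer than the average by 50.2 nt (SE 3.67, adjusted p = 3.3e-15) and Eif4a1 by 4.68 nt (SE 0.833, adjusted p = 1.1e-05), while Eif4a3, the helicase of the exon junction complex, was at 1.09 nt (SE 2.11, adjusted p = 0.702). Without weights Eif4a1 was at 4.98 nt and its call was lost (adjusted p = 0.0605). Eif4e was longer by 10.4 nt (SE 2.73, adjusted p = 0.00166) and Eif4e2 shorter by −18.1 nt (SE 2.94, adjusted p = 2.3e-06). The helicase cofactors are Eif4b and Eif4h. Eif4b was longer by 9.64 nt (SE 2.84, adjusted p = 0.00481), which was lost without MHY 48 h replicate 24, and Eif4h was shorter by −11.5 nt (SE 2.28, adjusted p = 5.5e-05). The scaffolds Eif4g1 and Eif4g2 were at 1.15 nt (SE 4.16) and 0.0785 nt (SE 1.60) and did not pass. All reads of Eif4g1 had a mapping quality under 10.

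Of the eIF4E inhibitors, Eif4ebp1 was shorter by −8.50 nt (SE 1.74, adjusted p = 8.4e-05) and Eif4ebp2 was at 0.274 nt (SE 3.44, adjusted p = 0.956). Eif6, which keeps free 60S ribosomal subunits from joining, was shorter by −15.9 nt (SE 2.23, adjusted p = 1.3e-07), with a median below that of its library in 8 of 8 libraries. Eif5a, with the most reads and the narrowest error, was at −0.349 nt (95% interval −1.85 to 1.15). It turned to 0.993 nt among reads mapped at quality 10 or more, and, with a minimum of 30 reads per library, passed as longer, by 2.62 nt (adjusted p = 0.00169). The TOP-list members fell on both sides, with Eif3e, Eif3f and Eif3h shorter and Eif3a and Eif4b longer. So did the 2 members with a pyrimidine run at the annotated start, Eif3f and Eif2s3x.

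**Figure D2:**
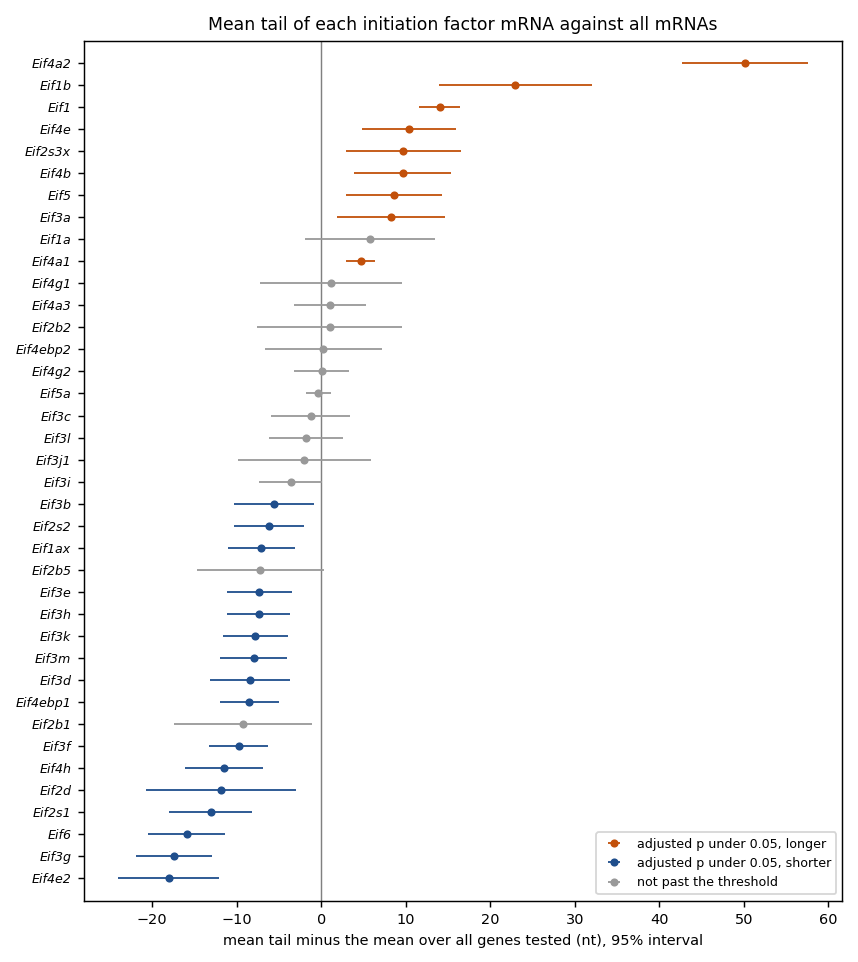
Mean tail of each of the 38 members fitted, minus the mean over all 1941 genes (nt, horizontal axis), with limma's 95% interval; orange marks members longer and blue members shorter at an adjusted p under 0.05, grey those that did not pass. The orange points run from 4.68 nt (Eif4a1) to 50.2 nt (Eif4a2) and the blue ones from −18.1 nt (Eif4e2) to −5.57 nt (Eif3b).

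Several members are related genes whose proteins are alike, and these were compared within each library, so that depth and the tail level of the library are shared. Their choice was made after the values had been seen. A two-sided exact permutation test that exchanges the genes within each of the 8 libraries was used, whose smallest possible p is 0.00781, and p-values were adjusted over the 12 pairs of genes or transcripts tested. With 7 libraries the smallest p is 0.0156, and each of the 4 calls below was lost after adjustment whichever library was left out (adjusted p = 0.0625 to 0.0938). Eif4a2 (chr16:23107444-23114136) had a mean tail of 137, 165, 154, 175, 170.1, 169.6, 139 and 159.6 nt in DMSO 24 h replicates 21 and 23, MHY 24 h replicates 21 and 23, DMSO 48 h replicates 24 and 25, and MHY 48 h replicates 24 and 25. Eif4a1 (chr11:69666936-69672423) had 117, 116, 114.5, 119, 114.5, 109 and 106 nt in the first 7 of these libraries and 112 nt in the last. The lowest Eif4a2 value was above the highest of Eif4a1. Eif4a2 was longer in 8 of 8 libraries, by 45.1 ± 13.8 nt (SD, n = 8, exact permutation p = 0.00781, adjusted p = 0.0469).

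Eif4e2 (chr1:87213914-87240488) had mean tails of 82.4 to 105 nt and Eif4e (chr3:138526179-138559696) of 104 to 134 nt. Eif4e2 was shorter in 8 of 8 libraries, by −29.3 ± 12.9 nt (SD, n = 8, exact permutation p = 0.00781, adjusted p = 0.0469). Eif1a was longer than Eif1ax in 7 of 8 libraries, by 13.1 ± 11.9 nt (SD, n = 8, exact permutation p = 0.0156, adjusted p = 0.0469), the exception being MHY 24 h replicate 21, with 101 against 104 nt. Eif4ebp2 minus Eif4ebp1 was 8.67 ± 9.62 nt, above 0 in 6 of 8 libraries, and did not pass after adjustment (n = 8, exact permutation p = 0.0312, adjusted p = 0.0750). Eif1b minus Eif1 was 9.54 ± 15.5 nt, above 0 in 5 of 8 libraries (n = 8, exact permutation p = 0.133, adjusted p = 0.199). Eif4a3 minus Eif4a1 was −3.45 ± 6.17 nt and Eif4g1 minus Eif4g2 was −0.524 ± 20.9 nt, and neither passed (n = 8, exact permutation, adjusted p = 0.260 and 0.945). Eif5a2, Eif4g3, Eif3j2 and Eif2s3y had too few reads to be set against their relatives.

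**Figure D3:**
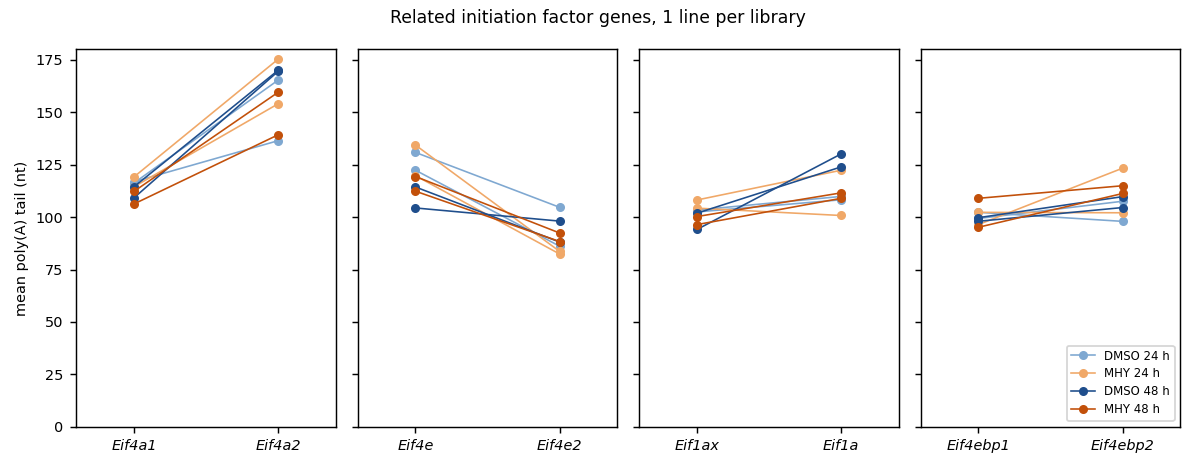
Mean poly(A) tail (nt, vertical axis, from 0) of 4 pairs of related initiation factor genes; each line joins the 2 genes in 1 library, coloured by group. All 8 lines rise from Eif4a1 to Eif4a2 and fall from Eif4e to Eif4e2, 7 of 8 rise from Eif1ax to Eif1a, and 6 of 8 rise from Eif4ebp1 to Eif4ebp2.

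Transcripts of 1 gene could differ as well, though the assignment of a read to a transcript is uncertain where transcripts share their 3′ end. Most reads of the family, 97.1%, were on protein-coding transcripts, with 2.16% on retained-intron and 0.531% on nonsense-mediated decay transcripts. For Eif4a2, 118 reads (41.1%) were on the leading coding transcript ENSMUST00000023599, with a median tail of 135 nt. The coding transcripts ENSMUST00000077605 (30 reads) and ENSMUST00000168891 (26 reads) had medians of 180.2 and 155 nt, and the nonsense-mediated decay transcript ENSMUST00000123413 (67 reads) had 162 nt. Against the leading Eif4a1 transcript ENSMUST00000163666, the leading Eif4a2 transcript alone was longer in 7 of 8 libraries, by 26.8 ± 19.1 nt (SD, n = 8, exact permutation p = 0.0156, adjusted p = 0.0469), with 7 to 35 reads per library. Its mean in the remaining library, DMSO 24 h replicate 21, was 108 nt. For Eif4e2, ENSMUST00000113233, with a 3′ UTR of 983 nt, had a median of 85.7 nt in 200 reads, and ENSMUST00000113231, with a 3′ UTR of 191 nt, had 73.0 nt in 150 reads. The difference of their means within libraries was 7.32 ± 10.7 nt and did not pass (n = 8, exact permutation p = 0.109, adjusted p = 0.199), nor did those between the 2 leading transcripts of Eif2s2, Eif4g2 and Eif4h. Across the 47 members, the median tail was weakly related to the length of the 3′ UTR of the leading transcript (Spearman rho 0.379, Pearson r with the log10 length 0.267) and to the number of reads (rho −0.343, r with the log10 number −0.263). These describe genes that share the same 8 libraries, and no test was made.

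Very short tails, under 30 nt, made up 2.99% of the reads of the family and 3.09% of those of mRNAs outside the family and the TOP list. Their share varied between members by more than counting error (Wilson 95% intervals, which cover counting error only). It was 8.51% in Eif3g (6.62% to 10.9%), 7.74% in Eif2s2 (6.17% to 9.67%) and 6.49% in Eif3d (4.75% to 8.82%), and 0.913% in Eif5a (0.695% to 1.20%). Between libraries it varied more, from 5.56% to 13.4% in Eif3g, 2.11% to 13.1% in Eif2s2, 1.52% to 10.5% in Eif3d and 0.418% to 1.47% in Eif5a. In Eif4ebp2, 0 of 260 reads had such a tail, with an upper bound of 1.46%, and in Eif2s3x 1 of 267 did (0.375%, 0.0661% to 2.09%). A low share of very short tails did not go with a long median in every member. Eif4a2 had the longest median and 3.14% of reads under 30 nt (1.66% to 5.85%), while Eif2b5 had a median of 95.4 nt and 0.418% (0.0739% to 2.33%). Tails of 30 to 90 nt made up 39.4% of the reads of the family, from 21.2% in Eif4a2 to 52.1% in Eif4e2, against 37.8% in the other mRNAs and 46.3% in TOP-list mRNAs outside the family.

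The main question of the design was whether MHY changed these tails. No member passed the limma test at an adjusted p under 0.05, in the mean tail, the share under 30 nt or the share of 30 to 90 nt, at 24 h or at 48 h, nor did any in the difference between the effects of the 2 time points. For the mean tail at 24 h, 0 of 38 members passed and 0 of 38 had an unadjusted p under 0.05 (all genes: 0% called, 80 of 1941 at an unadjusted p under 0.05). At 48 h, 0 of 38 passed and 3 had an unadjusted p under 0.05, where 0.721% of all genes were called, all of them shorter under MHY, and 9.33% had an unadjusted p under 0.05. For the share under 30 nt, 0 passed at either time, and 2 members at 24 h and 3 at 48 h had an unadjusted p under 0.05 (all genes: 0% called and 5.67% at an unadjusted p under 0.05 at 24 h, 0.361% and 10.6% at 48 h). For the share of 30 to 90 nt, 0 passed, and 3 members at 24 h and 1 at 48 h had an unadjusted p under 0.05 (all genes: 0% called and 4.84% at an unadjusted p under 0.05 at 24 h, 0.206% and 6.08% at 48 h). In the differences between 48 h and 24 h, 0 members passed in any of the 3 measures, with 5, 2 and 4 at an unadjusted p under 0.05 for the mean tail, the share under 30 nt and that of 30 to 90 nt (all genes: 0% called in each, and 5%, 8.45% and 3.55% at an unadjusted p under 0.05). With 2 libraries per group, the 95% intervals of single members were wide. That of the mean tail of Eif5a, the narrowest, was −0.607 to 7.37 nt at 48 h around a difference of 3.38 nt, and −4.25 to 4.47 nt at 24 h around 0.109 nt. For Eif4a1 the differences were −0.0216 nt (−5.58 to 5.54) at 24 h and −2.67 nt (−7.60 to 2.26) at 48 h, and for Eif1 they were 1.57 nt (−5.56 to 8.70) and 3.96 nt (−2.48 to 10.4). Any change within an interval remains compatible with these libraries.

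The median effect on the mean tail was 2.56 nt over the 38 members and −0.409 nt over all genes at 24 h, and −0.284 nt over the members and −3.20 nt over all genes at 48 h. Without regard to a test, the MHY pair lay wholly above the DMSO pair at 48 h in 9 of 38 members (10.8% of all genes) and wholly below in 10 (25.9% of all genes). At 24 h this was so for 6 members above (14.7% of all genes) and 2 below (17.9%). The members with the lowest unadjusted p at 48 h were Eif4a2, Eif2s2 and Eif3f. In Eif4a2 the mean tail was 170.1 and 169.6 nt under DMSO (replicates 24 and 25) and 139 and 159.6 nt under MHY, and the groups did not overlap. The limma difference was −24.0 nt (SE 9.05, 95% interval −42.8 to −5.29, adjusted p = 0.356). It ranged from −32.4 to −10.2 nt over the alternatives, with the smallest size without MHY 48 h replicate 24. The 24 h values, 137 and 165 nt in DMSO against 154 and 175 nt in MHY, overlapped, and the difference between the effects was −34.7 nt (SE 15.6, adjusted p = 0.942). In Eif2s2 the mean tail at 48 h was 115 and 99.5 nt under DMSO and 90.8 and 93.7 nt under MHY, with no overlap, a difference of −13.1 nt (SE 5.48, adjusted p = 0.394), and the difference between the effects was −21.2 nt (SE 8.45, adjusted p = 0.898). In Eif3f, the TOP-list member with the pyrimidine run, it was 95.6 and 104.5 nt under DMSO and 90.1 and 89.9 nt under MHY at 48 h, with no overlap, a difference of −10.9 nt (SE 4.57, adjusted p = 0.397). Over the alternatives the difference ran from −23.2 to −7.66 nt in Eif2s2, smallest without DMSO 48 h replicate 24, and from −14.4 to −5.58 nt in Eif3f, smallest without DMSO 48 h replicate 25. At 24 h Eif3f had 102 and 104 nt under DMSO and 104 and 98.3 nt under MHY, which overlapped. Of the other TOP-list members at 48 h, Eif3a was at −14.6 nt (95% interval −31.5 to 2.29), Eif3h at −5.49 nt (−16.1 to 5.11), Eif3e at 3.03 nt (−7.71 to 13.8) and Eif4b at 1.07 nt (−13.9 to 16.1). Eif1b had the widest swing between the time points, from 26.4 nt at 24 h to −19.2 nt at 48 h on 15 to 28 reads per library, a difference between the effects of −45.7 nt (SE 17.8, adjusted p = 0.898).

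**Figure D4:**
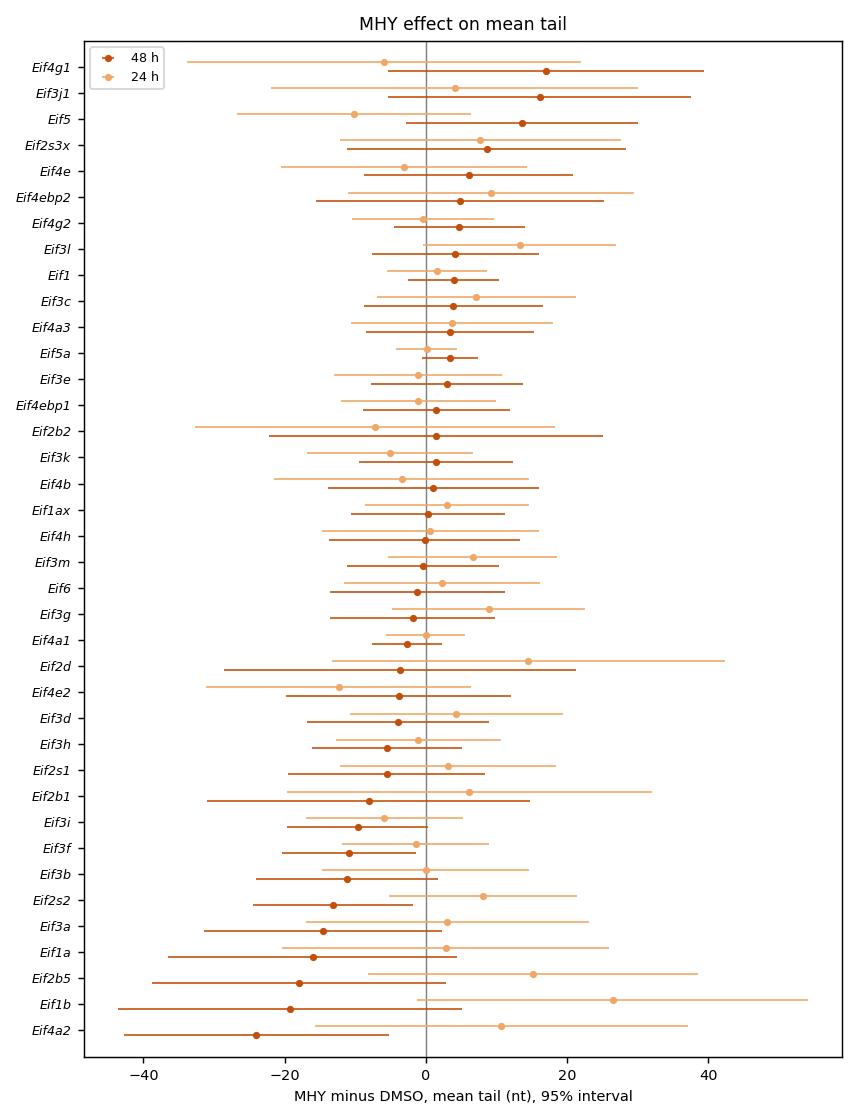
Difference of the mean tail between MHY and DMSO (nt, horizontal axis) for the 38 members fitted, ordered by the effect at 48 h, with limma's 95% interval; light orange is 24 h and dark orange 48 h. The intervals of 35 members at 48 h and of all 38 at 24 h include 0, and Eif4a2, Eif2s2 and Eif3f are the members at 48 h whose intervals do not.

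The members at an unadjusted p under 0.05 for the share under 30 nt were Eif3m and Eif3i at 24 h, in opposite directions, and Eif3a, Eif3l and Eif3k at 48 h. At 24 h this share was 3.90% and 6.56% in Eif3m under DMSO and 2.00% and 0% under MHY, and the log2 odds differed by −2.02 (SE 0.625, adjusted p = 0.675). In Eif3i it was 0% and 0.806% under DMSO and 1.89% and 2.78% under MHY (log2 odds 1.79, SE 0.583, adjusted p = 0.710). These rest on at most 8 reads with such a tail in a library. At 48 h the share was 0% in both DMSO libraries of Eif3a and 6.15% (4 reads) and 4.55% (1 read) under MHY (log2 odds 3.003, SE 0.819, adjusted p = 0.206), and the difference between its effects at the 2 times was 3.88 (SE 1.27, adjusted p = 0.450). With a bound of 20 nt in place of 30 nt these fell to 0.149 and 0.713. Eif3l and Eif3k differed by 1.09 (SE 0.403, adjusted p = 0.397) and 1.24 (SE 0.517, adjusted p = 0.456), and both turned below 0 with that bound. For the share of 30 to 90 nt the members were Eif1b (−2.02 log2 odds, SE 0.768), Eif2s2 (−0.751, SE 0.319) and Eif2b5 (−1.47, SE 0.627) at 24 h, each with an adjusted p of 0.981, and Eif3f at 48 h (0.576, SE 0.264, adjusted p = 0.743). The median effect on the share under 30 nt was −0.369 log2 odds over the members and −0.0753 over all genes at 24 h, and 0.341 and 0.412 at 48 h. In this share the MHY pair lay wholly above the DMSO pair in 3 members at 24 h (7.83% of all genes) and in 6 at 48 h (26% of all genes), and wholly below in 6 at 24 h (14.2%) and 4 at 48 h (7.06%). For the share of 30 to 90 nt it lay above in 3 (17.9%) and 6 (17.5%) and below in 3 (14.1%) and 7 (15.3%).

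Read over the whole family, the tails of MHY and DMSO cultures overlapped at both times. At 24 h the pooled median was 100.0 and 104.6 nt under DMSO and 100.9 and 107.5 nt under MHY (102 ± 3.21 and 104 ± 4.70 nt, SD, n = 2). The 48 h medians were 98.4 and 97.5 nt in DMSO against 96.2 and 102 nt in MHY (97.9 ± 0.601 and 99.3 ± 4.41 nt, SD, n = 2). The share under 30 nt was 2.93% ± 0.852 and 2.37% ± 0.323 at 24 h, and 2.74% ± 0.110 and 3.45% ± 1.26 at 48 h (DMSO and MHY, SD, n = 2). At 24 h the difference in this share was −0.559 percentage points over all runs, −1.34 in run 2 alone and 0.127 in run 3 alone. For the 5 TOP-list members pooled, the share under 30 nt at 24 h was 3.75% and 3.55% under DMSO and 1.75% and 1.70% under MHY, with no overlap, and at 48 h 4.09% and 2.73% against 4.07% and 2.67%, which overlapped. The 24 h shares came from 373 and 535 reads under DMSO and 401 and 294 under MHY. MHY also lay wholly below DMSO at 24 h in TOP-list mRNAs outside the family (2.33% and 2.41% against 2.25% and 2.16%). So it did in all other mRNAs (2.47% and 3.01% against 2.34% and 2.27%). The pooled median tail of the 5 TOP-list members at 24 h was 98.4 ± 0.933 nt in DMSO and 99.8 ± 3.54 nt in MHY, and 93.8 ± 5.59 and 90.1 ± 3.21 nt after 48 h (SD, n = 2). Their pooled mean tail at 48 h was 103.5 and 105.2 nt under DMSO and 99.0 and 98.9 nt under MHY, with no overlap. Nor did the 48 h means overlap in TOP-list mRNAs outside the family (96.6 and 100.3 against 91.2 and 96.1 nt). The same held in all other mRNAs (109.7 and 110.6 against 105.7 and 109.5 nt). TOP-list mRNAs outside the family had a pooled median at 24 h of 94.9 ± 0.834 nt in DMSO and 92.7 ± 0.354 nt in MHY, and after 48 h of 91.0 ± 3.48 and 85.7 ± 4.49 nt (SD, n = 2). No test was made on the pooled values.

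MHY left the read numbers of the family without a called change too. In the limma voom fit, 0 of 46 members passed at 24 h (0.0487% of 4108 genes called), 0 of 46 at 48 h (1.61% called, 0.389% higher and 1.22% lower) and 0 of 46 in the difference between the effects (0.341% called), with 3, 5 and 3 members at an unadjusted p under 0.05 (4.48%, 12.2% and 6.62% of all genes). Differences are on the log2 scale. At 24 h, 11 members were above 0 and 35 below (76.1%), with a median of −0.11, while 52.7% of all genes were below 0, with a median of −0.02. At 48 h, 24 members were above and 22 below (47.8%), with a median of 0.01, against 51.5% of all genes below and a median of −0.02. The MHY pair lay wholly below the DMSO pair at 24 h in 11 of 46 members (16.6% of all genes) and above in 5 (17.8%), and at 48 h below in 6 (14.4%) and above in 13 (25.3%). In bulk RNA, fewer cells with an mRNA and less mRNA per cell cannot be told apart.

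Eif4ebp1 was the member that lay higher under MHY in both fits at an unadjusted p under 0.05. It had 581 and 447 rpm under DMSO and 688 and 685 rpm under MHY at 24 h, and 376 and 508 rpm under DMSO and 635 and 608 rpm under MHY at 48 h, with no overlap at either time. The differences were 0.42 (SE 0.17, adjusted p = 0.959) and 0.38 (SE 0.17, adjusted p = 0.305), and neither passed. They fell to 0.20 without DMSO 24 h replicate 23 and to 0.16 without DMSO 48 h replicate 24. Eif4e2 had 176 and 158 rpm under DMSO and 275 and 257 rpm under MHY at 48 h, with no overlap (0.57, SE 0.22, adjusted p = 0.202). Eif4a1 had 2805 and 2756 rpm under DMSO and 2558 and 2420 rpm under MHY at 48 h, with no overlap (−0.27, SE 0.11, adjusted p = 0.278). Eif2a, which encodes a factor that can bind initiator tRNA on its own, had 124 and 129 rpm under DMSO and 111 and 66.6 rpm under MHY at 48 h (−0.59, SE 0.29, adjusted p = 0.376), and the difference between its effects was −1.20 (SE 0.46, adjusted p = 0.442). Eif2s3x was at −0.57 (SE 0.27, adjusted p = 0.351) at 48 h with overlapping groups. It passed when DMSO 48 h replicate 24 was left out (−0.98, adjusted p = 0.0439), the 1 call on a member in any alternative, and was at −0.01 (adjusted p = 1.00) when DMSO 48 h replicate 25 was left out. At 24 h Eif3a had 197 and 218 rpm under DMSO and 136 and 126 rpm under MHY, with no overlap (−0.69, SE 0.26, adjusted p = 0.959), and Eif3c 314.5 and 354.5 rpm against 272 and 228 rpm, also with no overlap (−0.45, SE 0.21, adjusted p = 0.959). At 48 h the groups of Eif3a overlapped, at 167 and 222 rpm against 213 and 105 rpm.

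**Figure D5:**
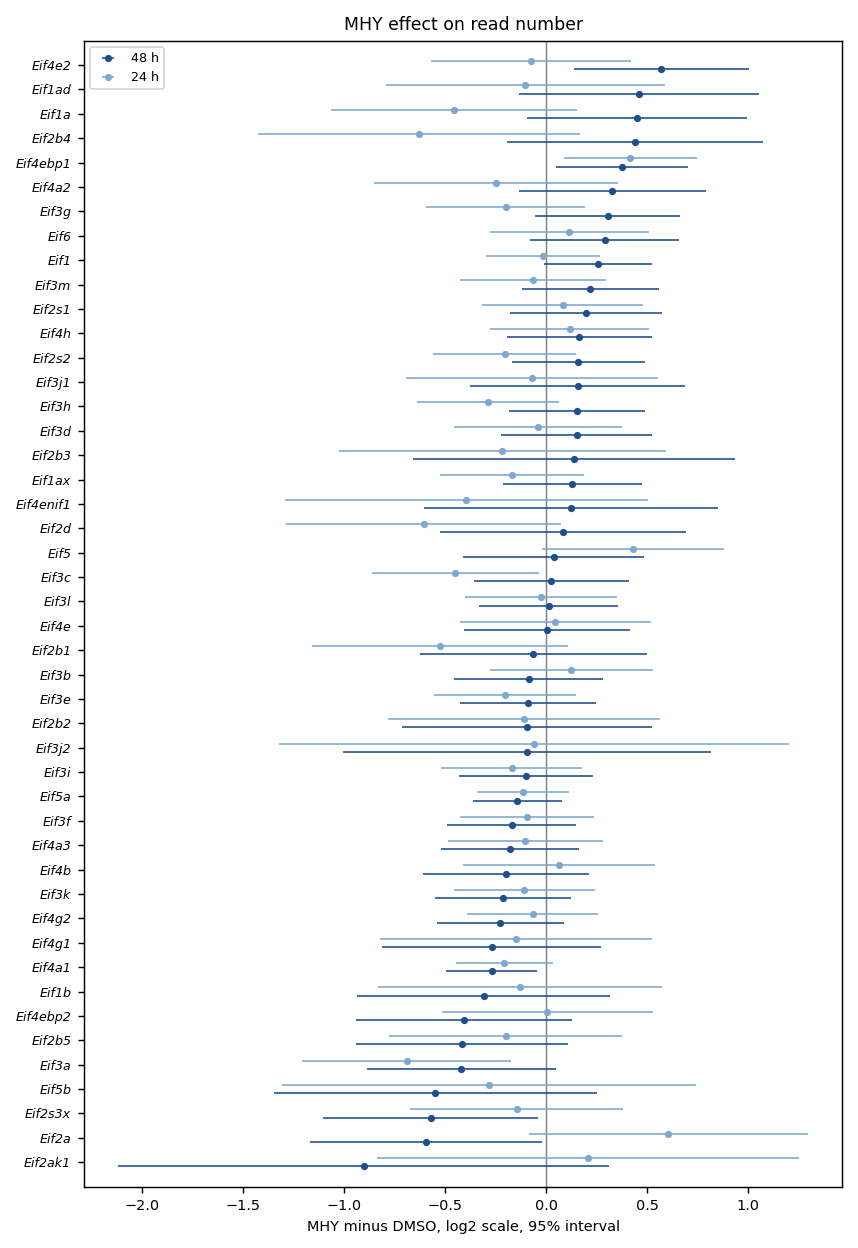
Difference of the read number between MHY and DMSO (log2 scale, horizontal axis) for the 46 members fitted, ordered by the effect at 48 h, with limma's 95% interval; light blue is 24 h and dark blue 48 h. The Eif4ebp1 intervals lie above 0 at both times, and no member passed at an adjusted p under 0.05.

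Partners of these factors in the mTOR pathway and in initiation were taken as a list of 36 genes. In the mean tail, 0 of the 13 that could be fitted passed at 24 h (0% of all genes called) or at 48 h (0.721%), with 0 and 3 at an unadjusted p under 0.05 (4.12% and 9.33% of all genes). In read number, 1 of 20 passed at 48 h (1.61% of all genes called, 1.22% lower), Ddit4, an inhibitor of mTOR complex 1, which was lower under MHY (−1.75, SE 0.32, adjusted p = 1.4e-05). With Ddit4 counted, 2 were higher and 4 lower at an unadjusted p under 0.05 at 48 h (5.04% and 7.21% of all genes). At 24 h 0 of 20 passed (0.0487% called), with 3 at an unadjusted p under 0.05 (4.48% of all genes). Set against all mRNAs, 6 of 13 partners differed in mean tail, where 48.8% of all genes did. The mRNAs of Ddx3x, a helicase that aids scanning, Atf4, the transcription factor made when eIF2 is phosphorylated, and Larp1, the repressor of TOP mRNAs, were longer by 31.2 (SE 2.83), 14.5 (SE 2.13) and 11.9 nt (SE 3.75). Those of Rps6, a ribosomal protein, Pabpc1, the poly(A)-binding protein, and Rack1, a ribosome-bound scaffold, were shorter by −8.85 (SE 0.647), −8.73 (SE 1.51) and −5.08 nt (SE 0.631).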

How the data were processed

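Poly(A)-selected RNA of 8 samples was sequenced as native RNA on nanopores. Base calls (Guppy), alignments to GENCODE vM17 transcripts of mm10 (minimap2, version 2.20 in the submitters' notes), tail estimates (Nanopolish) and barcodes (Deeplexicon) were the authors' own. The deposited table holds 1 alignment per line with its tail length in nt, a barcode confidence (deposited as a fraction), a mapping quality (deposited as a score) and positions along the transcript, without normalization. Of 2439710 lines, 2027638 carried the tag PASS. Of these, mRNA lines outside pseudogenes and mitochondrial genes were counted once per read and transcript, which left 1891458. Reads per gene were counted here from those lines, with 2 libraries per group. Wilson intervals cover counting error only.

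Tail shares (log2 odds, 0.5 reads added to each side) and mean tails of genes with at least 10 reads in each library were fitted with limma 3.58.1, weighted by reads. For read counts limma voom was used, with size factors from medians of ratios and a minimum of 10 reads in 2 or more libraries. All 8 libraries entered each fit, and p-values were adjusted over all genes by Benjamini and Hochberg. The fits were also run on simulated data, the outcome of which is not given here. R 4.3.3 and Python 3.11.15 were used. Per the study's methods, the 2 libraries of a group are biological replicates. The members, lists and tests were chosen with earlier results of these data known. Members are named if they were called in any fit or past an unadjusted p under 0.05, are on the TOP list, are among the 10 with most reads or the 3 with the shortest or longest median, lead their role, have a related member, or lie next to the minimum of 30 reads. Alternatives were a mapping quality of at least 10, a barcode confidence of at least 0.9, 1 line per read, at least 30 reads in each library, no weights, other class bounds, other size factors and filters, limma-trend, log2 tails, libraries of 1 time point or 1 run alone, a replicate block and the omission of each library. Gene coordinates are of GENCODE vM21 (GRCm38, the assembly of mm10).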

Additional observations from a re-analysis of the deposited data

Results flagged for a closer look

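The share of tails of 30 to 90 nt, pooled over the 5 eIF2B subunit mRNAs, differed between MHY and DMSO in opposite directions at the 2 time points. It was 41.8% and 40.9% under DMSO and 32.0% and 35.6% under MHY at 24 h, a difference of the means of −7.59 percentage points. At 48 h it was 43.3% and 39.0% under DMSO and 49.7% and 45.3% under MHY, a difference of 6.33 percentage points. The MHY pair lay wholly below the DMSO pair at 24 h and wholly above it at 48 h. The pattern was picked for this separation after several tail measures had been compared in all the pooled roles and in the whole family. With 2 against 2 libraries the smallest possible two-sided exact permutation p is 0.333. Full separation at a time point therefore cannot be told from chance. Other roles were separated at 24 h as well. For eIF2 and related tRNA-delivery factors the MHY pair lay wholly below (46.3% and 44.8% against 39.2% and 32.6%). For the eIF4E inhibitors and 4E-T it lay wholly above (39.9% and 34.9% against 41.5% and 40.4%). Both of these overlapped at 48 h. The difference between the time points was not tested for the pooled reads of eIF2B, which numbered 59 to 145 per library, and each time point was sequenced in its own runs.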

How the results depend on the processing

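The number of members called for an effect of MHY stayed at 0 under every alternative run for the 12 comparisons, but for the read number at 48 h, where it was 1 without DMSO 48 h replicate 24 and 0 to 1 over the omissions. The count of members that differed from all mRNAs in mean tail was 25, and 16 of the 24 that had at least 30 reads in each library. Of the 25 calls, 16 were kept in every alternative that could be fitted and 18 whichever library was left out. Those lost in at least 1 were on Eif1ax, Eif2d, Eif2s2, Eif2s3x, Eif3a, Eif3b, Eif4a1, Eif4b and Eif5. Beside the omissions of a library, these losses came among reads mapped at quality 10 or more (Eif2s2, Eif3b and Eif5), with at least 30 reads in each library (Eif1ax, Eif2s2 and Eif3b), without weights (Eif2s2, Eif3a, Eif3b and Eif4a1) and with a barcode confidence of at least 0.9 (Eif2s3x and Eif3b). Eif5a turned to 0.993 nt among reads mapped at quality 10 or more, and to 2.62 nt (adjusted p = 0.00169) with at least 30 reads in each library, which also changes the genes averaged for the reference. Over all genes the counts of calls moved more. Those for the mean tail at 48 h ran from 0 to 54 around 14, those for the share under 30 nt at 48 h from 0 to 17 around 7, those for the share of 30 to 90 nt at 48 h from 0 to 35 around 4, those for read number at 48 h from 15 to 146 around 66, and those for the difference in read number from 0 to 29 around 14.

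Some differences changed sign. With a bound of 20 nt in place of 30 nt the share of the shortest tails at 48 h was −0.125 log2 odds (MHY minus DMSO) for Eif3k and −0.100 for Eif3l, from 1.24 and 1.09. Near 0, the mean tail effect of Eif4a1 at 24 h was 0.219 nt among reads mapped at quality 10 or more, 0.240 nt without weights, 0.290 nt with the replicate block, and −2.05 to 2.66 nt over the omissions of a library, and at 48 h it ran from −5.83 to 0.951 nt over the omissions. That of Eif5a at 24 h was −0.0564 nt among reads mapped at quality 10 or more and ran from −0.650 to 1.09 nt over the omissions, and that of Eif1 at 24 h ran from −2.50 to 4.20 nt. The difference in the pooled share under 30 nt at 24 h was −1.34 and 0.127 percentage points in run 2 and run 3 alone. The cause was not tested. The differences of the 4 pairs of related genes or transcripts that passed kept their direction in all 44 alternatives, which were chosen after seeing the data. The adjusted p stayed under 0.05 in 12 of these and in 0 of the 32 omissions of a library.

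Gene by gene, libraries that share a number deviated together little. The correlation of their deviations over genes was 0.0175 at 24 h and 0.0459 at 48 h for the mean tail, and 0.0191 and 0.138 for read number, with 2 pairs per comparison. The number was not taken as a pairing. This correlation cannot see a shift shared by all genes of a library. The median tail of all mRNAs was longer in the higher number of each group. It was 100.8 and 102.6 nt in DMSO 24 h, 100.3 and 101.6 nt in MHY 24 h, 96.85 and 99.4 nt in DMSO 48 h, and 92.5 and 98.4 nt in MHY 48 h. Whether the numbers form pairs was not tested for the pooled values. With the number as a block, 0 members were called in any comparison. Depth limited the tail fits to the 38 members with at least 10 reads in each library.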
